A study of Homo sapiens with 2 samples.

Results

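Transcript levels of 10 genes around the kinase FYN were compared between cells with a non-targeting shRNA and cells with an shRNA against DDX5, an RNA helicase. The genes are 5 SRC family kinases (FYN, SRC, YES1, LYN and LCK), the kinase CSK and its anchor PAG1, which restrain that family, and the focal adhesion kinases PTK2 (FAK) and PTK2B (PYK2) with their scaffold BCAR1 (p130Cas). They were chosen by name around FYN, whose high ratio in these 2 libraries was already known, so the FYN values below describe that choice and support nothing by themselves. Of the 10 genes, 9 were found among the 16021 rows of the table by Entrez number, and LCK was not analysed here.

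Both libraries came from HGC-27, an established human gastric cancer line that the labels call gastric adenocarcinoma. Each culture had been transduced with a lentivirus, one carrying non-targeting shRNA and the other DDX5 shRNA. Puromycin was added after 48 h, and cells were collected 1 week later, so both cultures had gone through viral transduction and drug selection. Each condition had 1 library, which allows no p-value, standard error or measure of the spread between cultures, and the labels do not give the number of distinct shRNAs against DDX5. A difference below is a difference between these 2 libraries.

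SRC family kinases are membrane-bound tyrosine kinases with a lipid-modified N-terminal end, SH3 and SH2 domains that bind partner proteins, and a kinase domain. They are held inactive when CSK phosphorylates a tyrosine in their C-terminal tail. They are released when that tyrosine is dephosphorylated or the binding domains are engaged. At sites where integrins grip the matrix, FAK phosphorylates itself, a SRC family kinase docks there, and both phosphorylate scaffolds such as p130Cas and paxillin, which feeds into cell spreading and migration. FYN, YES1 and SRC are found in most tissues, whereas LCK is mainly a lymphocyte kinase and LYN is best known from blood cells.

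Because the family shares its domains, the sequences were first compared for how far reads could be divided between relatives. None of the 358 windows of 50 bases along the longest FYN transcript (GENCODE v29, 3628 bases) was found in the coding transcripts of any other gene. The same held for SRC, LYN, CSK, PTK2, PTK2B and BCAR1, while 1.96% of YES1 windows and 0.0935% of PAG1 windows were shared, none of them with another member. The longest stretch of FYN that recurs unbroken in a relative was 23 bases in YES1, 20 bases in SRC and 18 bases in LYN. Windows were taken every 10 bases, and only exact matches on the same strand of protein-coding transcripts were sought. Stretches with mismatches were not searched, so this covers the division of reads only in part. The longest exact stretches lie in the coding part of FYN, and those shared with YES1 and SRC are shown, 5′ to 3′.
FYN and YES1: aaacttgacaatggtggatacta
FYN and SRC: ttccccatcaagtggacggc

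The table gives 1 value per gene and does not divide FYN by start site. RefSeq start-site sequences (GRCh38.p14) matched 5 of the 10 genes, with 4 starts for FYN and 1 for YES1. The 250 bases before the most upstream FYN start (chr6:111873453-111873702, minus strand) and before the YES1 start (chr18:812243-812492, minus strand) are printed to set the member with the highest ratio beside the most abundant member. Capitals mark CCAAT boxes (CCAAT) and GC boxes (GGGCGG), searched on both strands.
FYN: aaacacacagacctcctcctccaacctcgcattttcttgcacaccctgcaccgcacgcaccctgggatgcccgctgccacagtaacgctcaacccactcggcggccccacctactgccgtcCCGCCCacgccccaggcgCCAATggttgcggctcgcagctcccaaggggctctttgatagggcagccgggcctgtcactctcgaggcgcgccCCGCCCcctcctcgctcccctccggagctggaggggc
YES1: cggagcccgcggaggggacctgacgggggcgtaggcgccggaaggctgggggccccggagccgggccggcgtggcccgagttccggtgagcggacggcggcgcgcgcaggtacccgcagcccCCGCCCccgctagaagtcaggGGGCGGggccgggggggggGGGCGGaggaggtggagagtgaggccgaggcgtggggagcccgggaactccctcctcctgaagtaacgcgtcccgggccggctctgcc

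The printed windows hold 20 CG dinucleotides in FYN and 32 in YES1, against a median of 11 over 35116 RefSeq windows of that length. The other FYN starts differ widely, with 45, 6 and 0 CG dinucleotides in order from upstream, and the window with 45 holds 8 GC boxes whereas the last 2 hold none. The printed FYN window holds 1 CCAAT box and 2 GC boxes, and the YES1 window holds 3 GC boxes and no CCAAT box. Among all windows, 32.0% hold a CCAAT box and 42.6% a GC box. The ATF4 and CHOP composite element (TGATGNAA), held by 3.14% of all windows, the TATA box (TATAAA), held by 10.7%, and the E-box (CACGTG), held by 6.34%, were not found in any of the 4 FYN windows. The 5 motifs do not overlap in the printed windows, and a match or its absence describes only these letters.

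DDX5 itself measured 170.5 FPKM (fragments scaled to transcript length and sequencing depth) with the non-targeting shRNA and 50.78 FPKM with the DDX5 shRNA. That is 29.8% of the control level. Steps between low values of short genes put the depth near 1.41e+07 fragments in both libraries, so fragment numbers below are estimates. Differences are given as the log2 ratio of FPKM + 1, DDX5 shRNA over non-targeting, which understates differences of low genes. A gene is called 2-fold apart where that ratio reaches 1 or -1, and folds of named genes are ratios of the deposited FPKM. Pairs of FPKM values always give the non-targeting library first. Of the 11413 genes averaging 1 FPKM or more, 478 (4.19%) were 2-fold or more higher with the DDX5 shRNA and 258 (2.26%) were 2-fold or more lower. Scaling both columns to an equal FPKM sum, called equal totals below, moved the median of all genes by -0.10 and gave 379 higher and 379 lower. Of 8 mesenchymal markers 7 passed the filter, with a median log2 ratio of 0.28, 5 above 0 and 2 below. Of the 7, 1 (TWIST1, 98.96 and 199.0 FPKM) was 2-fold or more higher, beside 4.19% of all genes. None was 2-fold lower, beside 2.26%. The TWIST1 log2 ratio of 1.001 was 0.89 with equal totals, below 2-fold. The transcription factors SNAI2 (24.66 and 43.98 FPKM), ZEB2 (5.27 and 8.29 FPKM) and ZEB1 (14.0 and 17.13 FPKM) and fibronectin (FN1, 4.76 and 5.99 FPKM) had log2 ratios above 0. Vimentin (VIM), a filament gene (1583.62 and 1270.59 FPKM), and SPARC (53.61 and 52.72 FPKM) had log2 ratios below 0, at -0.32 and -0.024. CDH2 was near 0 FPKM (0.07 and 0 FPKM). The epithelial genes EPCAM (0.04 and 0.39 FPKM), CDH1 (0.36 and 0.07 FPKM) and KRT18 (0.10 and 0.16 FPKM) were near 0. Of 10 epithelial markers with a row, 6 averaged below 1 FPKM, and the others were KRT8 (5.24 and 1.31 FPKM), CLDN7 (2.36 and 9.84 FPKM), KRT7 (1.07 and 1.35 FPKM) and ESRP1 (0.02 and 15.92 FPKM). These 4 had a median log2 ratio of 0.94, and over all 10 with a row, without the filter, it was 0.075. Of the 4, 2 (ESRP1 and CLDN7) were 2-fold or more higher, beside 4.19% of all genes. KRT8 was 2-fold or more lower, beside 2.26%. ESRP1 passed the filter only through its DDX5 shRNA value. Most listed epithelial markers with a row were low in both libraries, and what this means for the adenocarcinoma label was not tested.

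No other measured member reached the FYN log2 ratio of 2.85, and the next was PTK2B at 1.05. Each of the 9 averaged 1 FPKM or more. PTK2B (0.43 and 1.96 FPKM) did so only through its DDX5 shRNA value, and LYN (2.85 and 0.92 FPKM) only through its non-targeting value. With the DDX5 shRNA, 2 of the 9 (FYN and PTK2B) were 2-fold or more higher, beside 4.19% of all genes. Of the others, 1 (LYN) was 2-fold or more lower, beside 2.26%, and 6 lay within 2-fold. Their median log2 ratio was 0.084, beside 0.024 for all genes tested, and -0.0056 over the 8 members other than FYN. With equal totals the median of the 9 members was -0.026. Since FYN was chosen for its ratio and the others number 8, nothing particular to the family is read from these counts.

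**Figure D1:**
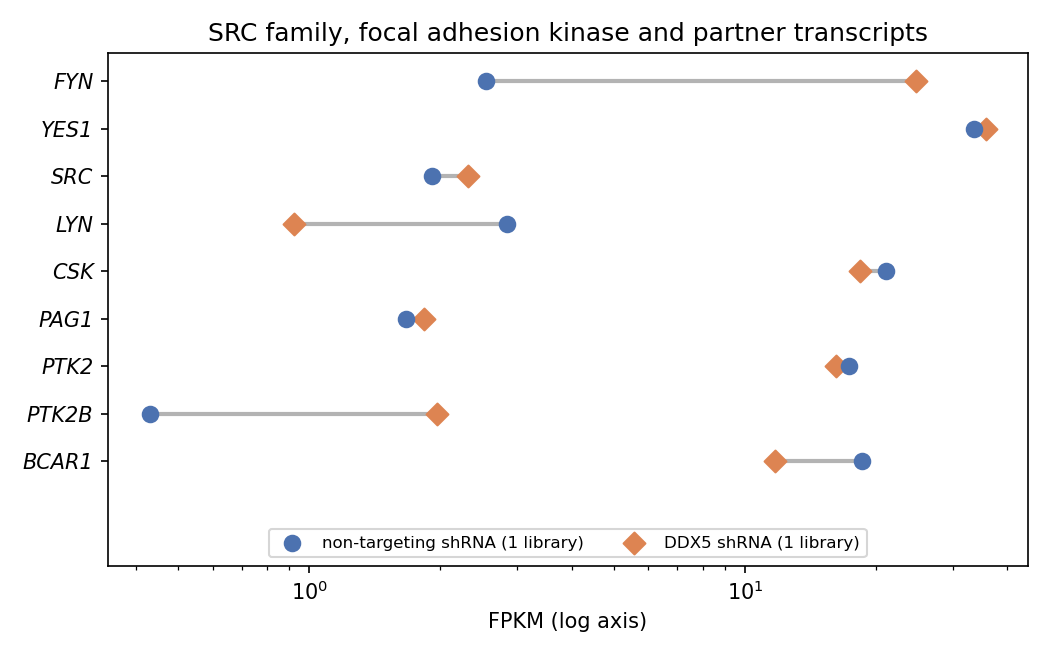
FPKM of the 9 measured members on a log axis, with circles for the non-targeting shRNA library and diamonds for the DDX5 shRNA library, 1 library each, so no error is shown. FYN stands at 2.55 and 24.67 FPKM, LYN and PTK2B differ in opposite directions at low levels, and YES1, SRC, CSK, PAG1 and PTK2 have nearly the same value in both libraries.

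FYN, a SRC family kinase of adhesion and immune receptor signalling, measured 2.55 FPKM with the non-targeting shRNA and 24.67 FPKM with the DDX5 shRNA. These levels correspond to about 127 and 1227 fragments. The log2 ratio was 2.85, a 9.67-fold difference of deposited FPKM, and it ranked 14 from the highest among the 8545 genes averaging 5 FPKM or more. FYN reached that average only through its DDX5 shRNA value, and it was chosen for its ratio, so the rank supports nothing. In a bulk culture, more RNA per cell and more cells with the transcript cannot be told apart. FYN lay at percentile 38.5 of all rows by its level in the control and at percentile 80.1 in the DDX5 shRNA library. As a description of its starting level, 1535 genes stood within 1.5-fold of the FYN value in the non-targeting library, and their median in the DDX5 shRNA library was 2.98 FPKM. Of those 1535 genes, INHBE was the single one above FYN in the DDX5 shRNA library. Since FYN was chosen for its high ratio, its place among them was largely fixed in advance and supports nothing. This window was set after the data were seen, and INHBE lies outside the naming rule. A narrower window tried first, whose values are not given, had no gene above FYN.

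YES1, a broadly expressed relative that acts beside SRC and FYN, was the most abundant member in both libraries, at 33.6 and 35.72 FPKM. Its log2 ratio was 0.086, and -0.026 with equal totals, so its direction depended on the scaling. SRC, the founding member, was weakly expressed at 1.91 and 2.31 FPKM, about 122 and 148 fragments, with a log2 ratio of 0.19. The kinase the family is named after was therefore at 5.68% of the YES1 level in the non-targeting library and at 6.47% in the DDX5 shRNA library.

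LYN, a SRC family kinase best known from B cells and myeloid cells, differed in the direction opposite to FYN. It measured 2.85 FPKM with the non-targeting shRNA and 0.92 FPKM with the DDX5 shRNA, about 229 and 74 fragments, a 3.10-fold lower level. The log2 ratio of -1.004 lies at the threshold, and it was -0.41 with a pseudocount of 5 and -1.53 with a pseudocount of 0.1. In the control library LYN and FYN had similar levels, with LYN 1.12 times FYN, whereas FYN was at 26.8 times the LYN level in the DDX5 shRNA library.

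**Figure D2:**
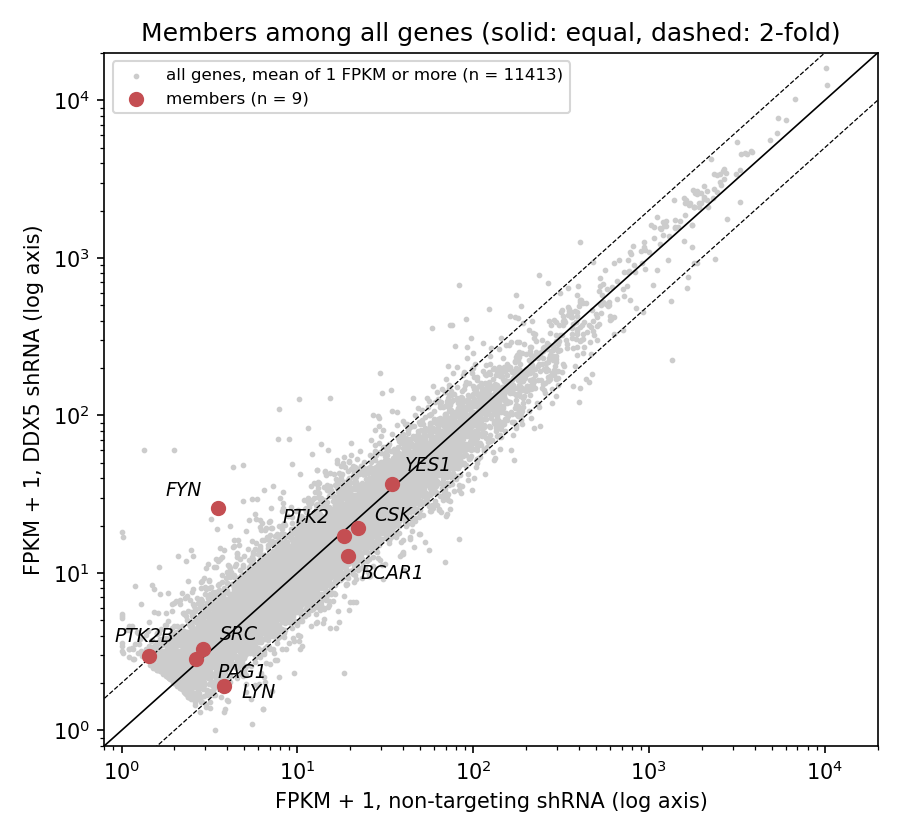
FPKM + 1 in the DDX5 shRNA library against FPKM + 1 in the non-targeting library, both on log axes, for 11413 genes in grey and the 9 measured members in red. The solid line marks equal values and the dashed lines 2-fold differences. FYN lies far above the upper dashed line, PTK2B just above it, LYN on the lower one, and the remaining 6 members lie between the lines.

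Of the other kinases of the family or close to it, FRK stood at 0.20 and 0.05 FPKM, PTK6 (BRK) at 0.39 and 1.11 FPKM and SRMS at 0.03 and 0 FPKM. None of these 3 reached a mean of 1 FPKM.

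Because FPKM is scaled to length, the levels of the family can be added. The 5 SRC family kinases with a row (YES1, FYN, LYN, SRC and FRK) summed to 41.11 FPKM in the non-targeting library and to 63.67 FPKM in the DDX5 shRNA library, a 1.55-fold difference. FYN held 6.20% of the family sum in the control and 38.7% in the DDX5 shRNA library, while YES1 held 81.7% and 56.1%. The share of LYN was 6.93% and 1.44%, and that of SRC 4.65% and 3.63%. The YES1 level was 13.2 times the FYN level in the control and 1.45 times in the DDX5 shRNA library. The difference of the family sum, 22.56 FPKM, was close to the difference of FYN alone, 22.12 FPKM. Without FYN the family summed to 38.56 and 39.0 FPKM. These are transcript levels, and kinase protein and activity were not measured.

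**Figure D3:**
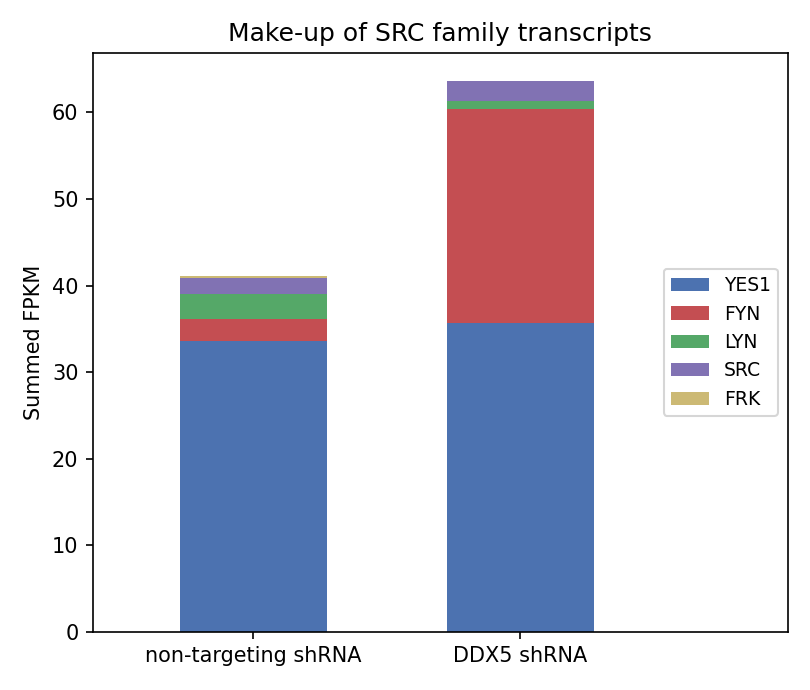
Stacked FPKM of the 5 SRC family kinases with a row in the table, for the non-targeting shRNA library and the DDX5 shRNA library, 1 library each. The YES1 part is nearly equal in both bars, and the FYN part is 6.20% of the control sum and 38.7% of the DDX5 shRNA sum.

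CSK and PAG1, which restrain the family, lay within 2-fold. CSK, the kinase that phosphorylates the inhibitory tail tyrosine of SRC family members, stood at 21.08 and 18.42 FPKM, with a log2 ratio of -0.19. PAG1, a membrane adaptor that brings CSK to the plasma membrane, stood at 1.67 and 1.83 FPKM, with a log2 ratio of 0.084. In the control library the CSK level was 8.27 times that of FYN, and in the DDX5 shRNA library the FYN level was 1.34 times that of CSK. The summed SRC family level was 1.95 times CSK in the control and 3.46 times CSK in the DDX5 shRNA library. MATK, the CSK-related kinase that can phosphorylate the same tail, was 2.07-fold lower, at 33.36 and 16.15 FPKM, with a log2 ratio of -1.003 that lies at the threshold. LIME1, another adaptor for CSK, stood at 1.99 and 1.18 FPKM.

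The 2 focal adhesion kinases differed from each other. PTK2, the kinase FAK that integrins activate, stood at 17.33 and 16.16 FPKM, about 1186 and 1106 fragments, with a log2 ratio of -0.095. Its relative PTK2B, a kinase that also responds to calcium, measured 0.43 FPKM with the non-targeting shRNA and 1.96 FPKM with the DDX5 shRNA, about 28 and 128 fragments. The PTK2B log2 ratio was 1.05, a 4.56-fold difference of deposited FPKM, and it was 0.99 with equal totals, which is below 2-fold on that scale. PTK2 remained the more abundant of the pair, at 40.3 times PTK2B in the control and 8.24 times in the DDX5 shRNA library. TRIM35, a gene that overlaps PTK2B in RefSeq, stood at 7.62 and 7.6 FPKM, and reads of overlapping genes cannot be told apart here since no strand setting is known here. The same limit holds for FYN, which overlaps 2 RefSeq loci without a row. Of the 10 genes, only SRC and LCK overlap no other RefSeq gene.

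BCAR1, the scaffold p130Cas that SRC and FAK phosphorylate, stood at 18.54 and 11.73 FPKM, 1.58-fold lower with the DDX5 shRNA, with a log2 ratio of -0.62. Of the other scaffolds of its family, EFS stood at 9.39 and 13.49 FPKM, whereas NEDD9 (0.49 and 0.12 FPKM) and CASS4 (0.21 and 0.20 FPKM) were weakly expressed. EFS, NEDD9 and CASS4 lie outside the naming rule and were chosen after their values were seen.

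The ordering of the members by level changed in a few places. In the non-targeting library the order was YES1, CSK, BCAR1, PTK2, LYN, FYN, SRC, PAG1 and PTK2B. In the DDX5 shRNA library it was YES1, FYN, CSK, PTK2, BCAR1, SRC, PTK2B, PAG1 and LYN. Whether neighbours in either order differ beyond the spread between cultures cannot be told with 1 library per condition.

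FYN was next set among tyrosine kinases listed by name, of which 44 averaged 1 FPKM or more. Of these, 6, FYN among them, were 2-fold or more higher, beside 4.19% of all genes, and 2 were 2-fold or more lower, beside 2.26%. The median log2 ratio of the 44 was -0.035. FYN was chosen for its ratio, so it adds nothing to this count. PTK2B (0.43 and 1.96 FPKM) passed the filter only through its DDX5 shRNA value, and LYN (2.85 and 0.92 FPKM) only through its non-targeting value. FYN had the highest ratio of the 44, LYN the lowest, YES1 ranked 19 and SRC 18 from the highest. By level FYN ranked 37 in the control and 6 in the DDX5 shRNA library. After FYN came AXL, a receptor for the ligand GAS6, at 5.65 and 18.17 FPKM, the collagen receptor DDR2 at 21.81 and 58.64 FPKM, LTK at 3.14 and 8.83 FPKM and the ephrin receptor EPHA6 at 1.56 and 4.57 FPKM. Of the 28 receptor kinases past the filter these 4 were 2-fold or more higher, beside 4.19% of all genes, and none was 2-fold lower, beside 2.26%. Their median log2 ratio was 0.0038, and -0.097 with equal totals. Of the 9 other non-receptor kinases past the filter none was 2-fold higher, beside 4.19% of all genes, and 1 (MATK) was 2-fold or more lower, beside 2.26%. ABL1 and ABL2, cytoplasmic kinases that share the SH3, SH2 and kinase domain order, stood at 20.07 and 28.39 FPKM and at 2.88 and 4.99 FPKM. TNK1, an ACK family kinase, stood at 4.68 and 2.25 FPKM.

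Regulators of the family and of FAK included the lowest ratio in these lists. CAV1, the caveolin that SRC kinases phosphorylate and that can bind them, stood at 17.55 and 1.30 FPKM, 13.5-fold lower with the DDX5 shRNA. PTPN12, a phosphatase that acts on p130Cas and FAK, was 2.04-fold higher, at 27.07 and 55.33 FPKM, with a log2 ratio of 1.005 that was below 2-fold with equal totals or after centring. CBLB, a ubiquitin ligase that marks active tyrosine kinases for degradation, stood at 6.07 and 10.04 FPKM. Phosphatases nearest the list median, PTPN2 (26.05 and 24.98 FPKM) and PTPN23 (9.96 and 10.07 FPKM), had nearly the same level in both libraries. Of 18 listed genes past the filter, 1 was 2-fold or more higher (PTPN12), beside 4.19% of all genes. Of the same 18, 2 were 2-fold or more lower (CAV1 and MATK), beside 2.26%, and the median was -0.022. The 18 include CSKMT (5.52 and 7.89 FPKM, log2 ratio 0.45), which encodes a citrate synthase methyltransferase and is not a regulator of these kinases. It was listed in error and is named only for this reason, and the median without it was not computed.

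Focal adhesion adaptors and structural proteins had a median log2 ratio of -0.10 across 27 genes, which was -0.20 with equal totals, with 10 above 0 and 17 below. Of the 27, 1 (LPXN) was 2-fold or more higher, beside 4.19% of all genes, and 1 (TNS3) was 2-fold or more lower, beside 2.26%. LPXN passed the filter only through its DDX5 shRNA value. TNS3, a tensin that links integrin tails to actin, stood at 10.93 and 3.61 FPKM, and LPXN, a paxillin relative that binds PYK2, at 0.59 and 2.59 FPKM. The actin crosslinkers FLNA (143.27 and 89.47 FPKM) and ACTN4 (79.38 and 53.86 FPKM) and the talin TLN2 (5.25 and 3.24 FPKM) were lower without reaching 2-fold. PARVA and TNS2 were typical, at 5.14 and 4.72 FPKM and at 13.44 and 12.28 FPKM.

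Exchange factors, GAPs and adaptors that carry the adhesion signal to small GTPases had a median of -0.062 across 24 genes. None was 2-fold or more higher, beside 4.19% of all genes, or lower, beside 2.26%. VAV2, an exchange factor for small GTPases that tyrosine kinases activate, stood at 8.17 and 3.89 FPKM, with a log2 ratio of -0.91 that was -1.004 with equal totals. The kinase PAK1, an effector of RAC1 and CDC42, stood at 12.72 and 6.99 FPKM. On the other side were GIT1 (19.12 and 27.45 FPKM), SOS1 (12.08 and 17.66 FPKM) and ARHGEF28, an exchange factor that binds FAK (2.21 and 3.59 FPKM). GRB2 and PIK3R1 were typical, at 37.21 and 35.95 FPKM and at 14.03 and 13.26 FPKM.

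Substrates and binding partners of SRC family kinases had a median of 0.20 across 22 genes, which was 0.092 with equal totals, with 13 above 0 and 9 below. Over all 26 genes with a row, without the filter, the median was 0.00050. Of the 22, 1 was 2-fold or more higher, beside 4.19% of all genes, and none was 2-fold lower, beside 2.26%. It was TOM1L1, an adaptor that binds FYN and other family members, at 10.56 and 27.24 FPKM, with a log2 ratio of 1.29. MAPT, the microtubule protein tau and a FYN partner in neurons, stood at 1.28 and 2.92 FPKM. The prion protein gene PRNP stood at 31.17 and 52.12 FPKM, SKAP2, an adaptor related to the FYN partner SKAP1, at 10.93 and 17.79 FPKM, and SRCIN1, an inhibitor of SRC, at 5.93 and 10.40 FPKM. STAT3 and the myristoyl transferase NMT2, which attaches the lipid that brings these kinases to membranes, were typical at 12.29 and 13.82 FPKM and at 7.93 and 9.53 FPKM.

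Integrins, the receptors upstream of FAK, had a median of 0.0080 across 10 genes. Of the 10, 1 was 2-fold or more higher, beside 4.19% of all genes, and none was 2-fold lower, beside 2.26%. It was ITGA5, which pairs with ITGB1 as the fibronectin receptor, at 28.06 and 84.64 FPKM, with a log2 ratio of 1.56. ITGA6, a laminin receptor chain, stood at 3.19 and 1.67 FPKM, and ITGAV at 23.58 and 23.94 FPKM. The medians of the 7 kinase and adhesion lists lay between -0.14 for the other non-receptor kinases and 0.20 for the substrates and partners, and both ends rest on the filter, since without it these 2 medians were -0.0053 and 0.00050.

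**Figure D4:**
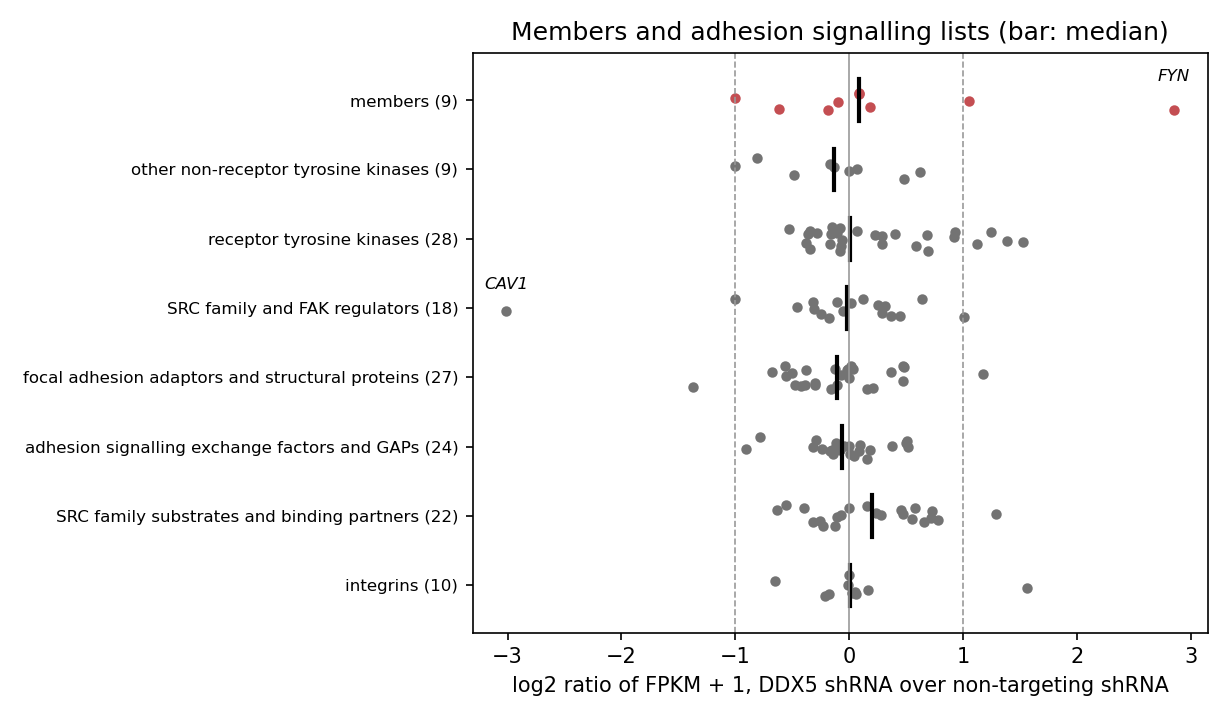
Log2 ratios of FPKM + 1 (DDX5 shRNA over non-targeting shRNA) for the members in red and 7 lists in grey, each point 1 gene with a mean of 1 FPKM or more, with the number of genes in brackets and black bars at the medians. Dashed lines mark 2-fold. FYN at 2.85 and CAV1 at -3.01 lie farthest from 0, and the medians lie between -0.14 and 0.20 (MATK belongs to 2 of the lists).

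The genes beside FYN on the chromosome were compared to see whether its ratio was shared by its neighbours. Of the 5 genes with a row on each side, 7 averaged 1 FPKM or more, and 1 of these, TUBE1, was 2-fold or more higher, beside 4.19% of all genes. TUBE1, which encodes epsilon tubulin of the centrioles and is the nearest gene with a row on one side, stood at 10.1 and 24.55 FPKM, with a log2 ratio of 1.203. FAM229B, next to it, stood at 1.2 and 2.69 FPKM, with a log2 ratio of 0.75. On the other side the nearest was TRAF3IP2, an adaptor of the IL-17 receptor, at 2.20 and 3.43 FPKM, with a log2 ratio of 0.47. Beyond these the polymerase gene REV3L (4.46 and 4.05 FPKM), the ribosome assembly gene RPF2 (21.17 and 20.25 FPKM), the actin-binding gene MARCKS (31.16 and 32.21 FPKM) and the deacetylase gene HDAC2 (21.03 and 20.75 FPKM) had log2 ratios between -0.11 and 0.046. SLC16A10 (0.56 and 0.39 FPKM), SLC60A2 (0.80 and 1.14 FPKM) and LAMA4 (0.12 and 0.05 FPKM) were below the filter. The FYN ratio was larger than that of each of the 10 neighbours, but FYN was chosen for its high ratio, so this supports nothing by itself. TUBE1, FAM229B and TRAF3IP2 were above 0, as were 5931 of the 11413 genes tested. REV3L, as close to FYN in gene order as FAM229B, was below 0 at -0.11. The first 3 stayed above 0 with equal totals. Grouping these 3 was not planned, and a shared cause was not tested.

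**Figure D5:**
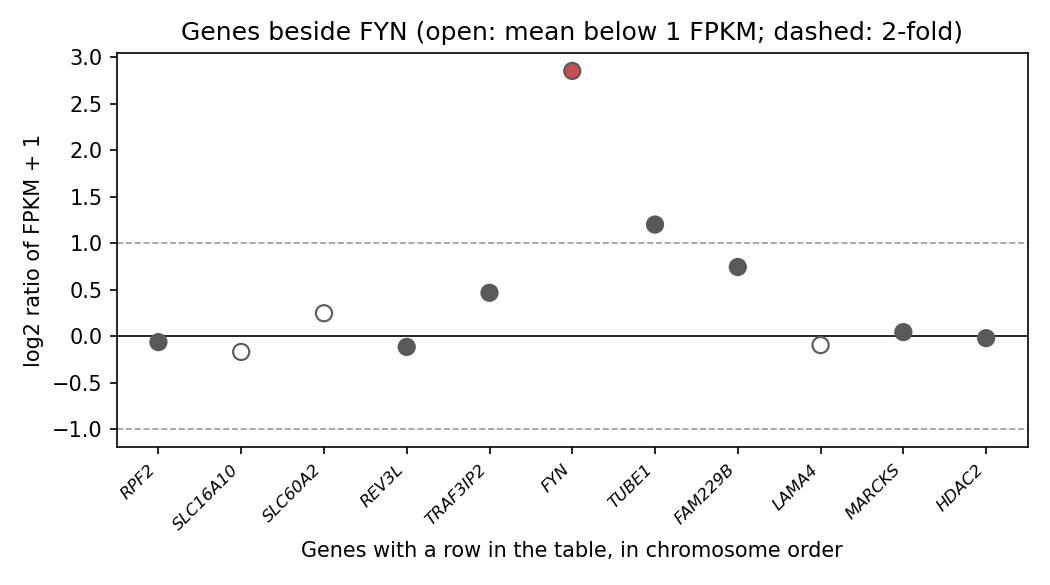
Log2 ratio of FPKM + 1 for FYN in red and the 5 genes with a row in the table on each side, in chromosome order and not to distance. Open circles are genes with a mean below 1 FPKM and dashed lines mark 2-fold. FYN stands at 2.85, TUBE1 at 1.203, FAM229B at 0.75 and TRAF3IP2 at 0.47, and the other genes lie between -0.17 and 0.25.

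The genes whose log2 ratio was nearest to that of FYN, among those averaging 5 FPKM or more, were DDIT3, the stress transcription factor CHOP (10.44 and 82.1 FPKM), the basement membrane collagen COL15A1 (2.21 and 20.96 FPKM) and ICA1, an islet cell autoantigen gene (0.63 and 9.89 FPKM). Their ratios were within 0.0066, 0.080 and 0.11 of the FYN value. COL15A1 and ICA1, like FYN, reached an average of 5 FPKM only through their DDX5 shRNA values. With 2 libraries such likeness is a single difference per gene and says nothing of shared control.

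FYN, LYN and PTK2B are abundant in blood cells, so blood cell markers were read in the same libraries. Of 23 markers 14 had a row, 11 of these had a mean below 1 FPKM, and their summed level was 7.30 FPKM in the non-targeting library and 7.48 FPKM in the DDX5 shRNA library. CORO1A was the highest at 3.21 and 4.23 FPKM, followed by FCER1G at 1.2 and 1.21 FPKM and LAT at 1.27 and 0.75 FPKM. CD8A, CD247, CD79A and SPI1 were listed at 0 with the non-targeting shRNA, CD79B at 0 with the DDX5 shRNA, and PTPRC and the CD3 chains CD3D, CD3E and CD3G were not analysed here. The markers went in both directions, and their part in the FYN, LYN and PTK2B values was not tested.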

How the data were processed

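Illumina RNA libraries were made from 1 HGC-27 culture per condition, per the labels' protocols. The deposited table holds FPKM computed by the authors, 1 column per library with 2 decimals, per the file headers. Tools named in the submitters' processing notes are RSEM 1.2.8, HISAT and Bowtie2, with the build hg19 and no roles. For annotation, strand setting and filters the entry is: not given in the sources used here. The values in FPKM depend on library composition, and RSEM divides shared reads by estimation.

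Columns were assigned by sample titles. RefSeq symbols (GRCh38.p14) matched 15289 of 16021 rows, and 11413 rows had a mean of 1 FPKM or more, the filter for counts and medians. Python 3.11.15, numpy 2.4.6 and pandas 2.3.3 were used. The log2 ratio used a pseudocount of 1. No test was run, since each condition has 1 library. The ratio code was tested on simulated data.

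Depth was estimated from short genes with 1 transcript. The gene selection, the step and the length correction were revised after a first estimate fitted poorly, and chosen for the best result on these genes, so the depth is approximate. With lengths shortened by 100 bases, 75.3% of 146 genes and 73.3% of 150 genes lay within 0.15 of a whole number of fragments (30% by chance for a fixed step, more for one chosen for the best result). Fragments per gene used the longest GENCODE v29 transcript.

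Members and lists were chosen with earlier results of these data known. Named genes were all members, related kinases and FYN neighbours, from each list up to 5 with the largest absolute ratio and 2 nearest the median, 3 genes with a ratio nearest to FYN, and defining markers. A planned comparison of proteins was not made. The settings varied were the pseudocount (0.1 and 5), the filter (none, or a mean of 5 FPKM), equal totals, and centring on the median or a mean trimmed by 30%.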

Additional observations from a re-analysis of the deposited data

How the results depend on the processing

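The FYN log2 ratio stayed above 1 under all 7 alternatives, from 1.97 with a pseudocount of 5 to 3.22 with a pseudocount of 0.1. The DDX5 ratio ranged from -1.84 to -1.65. The 2 changes of filter cannot alter the ratio of a single gene, so only the other alternatives could move these values. FYN was chosen for its high ratio and passed the filter at 5 FPKM only through its DDX5 shRNA value. Of the 9 members, the number at least 2-fold higher was 1 instead of 2 with a pseudocount of 5, with a filter at a mean of 5 FPKM and with equal totals. The number at least 2-fold lower was 0 instead of 1 with a pseudocount of 5 and with the filter at 5 FPKM, which removes LYN and PTK2B. YES1 changed sign with equal totals. Over all genes, 743 were at least 2-fold higher and 390 lower with a pseudocount of 0.1, and 194 and 102 with a pseudocount of 5. With equal totals, 50% of the genes 2-fold apart were higher, against 64.9% as deposited. Without FRK the share of FYN in the family sum was 6.23% and 38.8%. Calls at low levels (LYN, PTK2B, LPXN) rest on the pseudocount. The lower of their 2 values corresponds to about 74 fragments for LYN, 28 for PTK2B and 15 for LPXN, beside 127 for FYN. No paired analysis was possible because each condition has 1 library. The spread between cultures was not measured.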
